A study of Mus musculus with 108 samples.

Results

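In mouse liver, 11333 stretches of the autosomes were quiescent at 3 months and in state 7 at 12 months, whether the mice had been fed a standard diet or a calorie-restricted one. A stretch was selected on its deposited chromatin states. All its bins of 200 bp were in state 8 in the young group and in state 7 in both older groups, adjacent bins were merged, and stretches of at least 1 kb were kept. The stretches covered 65.1 Mb, or 2.64% of the autosomal bins, and held 325662 of the 8122212 autosomal bins in state 8 at 3 months (4.01%). They are 11333 of 366633 stretches of at least 1 kb with 1 combination of states on chromosomes 1 to 19 and X. As the states chose the stretches, the change of state itself is a description and not a result.

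ChIP-seq of H3K4me3, H3K27me3, H3K27ac and H3K4me1 had been performed by the study on chromatin of livers, fixed in formalin and embedded in paraffin, from female mice of the C57BL/6 strain. The young group, SD 3m, comprised 8 mice of 3 months fed a standard diet. The older groups were SD 12m (8 mice of 12 months on the same diet) and CR 12m (9 mice of 12 months whose calories were reduced by 30% from 3 months of age). These groups had 30, 29 and 29 libraries over all marks, which were merged within each mark before the states were assigned. Each group therefore has a single segmentation of mixed liver tissue, the spread between mice is not known, and no test was made. H3K4me3, the mark of state 7, was merged from 7, 8 and 5 libraries in SD 3m, SD 12m and CR 12m. How many reads these held is unknown. The part of these numbers in the results was not tested. Both 12-month segmentations are set against the same SD 3m segmentation, so an error in a label of SD 3m counts in both.

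H3K4me3 normally marks active promoters, H3K4me1 and H3K27ac mark enhancers, and H3K27me3 is laid down by Polycomb complexes on silent developmental genes. A quiescent state is one in which none of the profiled marks is found, which is the case for much of the gene-poor genome. State 7 of this model is nearly as bare, with a weak presence of H3K4me3 and little else, and the study named it for repeats and for constitutive lamina-associated domains. Such domains touch the nuclear lamina in many cell types and are generally rich in A and T, poor in genes and silent.

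The sequence of the central bin is shown for 5 stretches, because the longest of them fell into 2 kinds of sequence and the range of base composition among all was wide. The bins were read from GRCm38.p6, the assembly behind mm10, and capitals mark the CpG dinucleotides. None of the 5 bins overlapped an annotated exon.
Camkmt intron, 81.6 kb stretch, chr17:85365201-85365400, plus strand: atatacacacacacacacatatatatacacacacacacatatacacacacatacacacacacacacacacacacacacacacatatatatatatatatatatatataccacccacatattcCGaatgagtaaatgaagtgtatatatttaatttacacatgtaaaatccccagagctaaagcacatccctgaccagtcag
Gene desert of chromosome 4, 65.6 kb stretch, chr4:79990001-79990200, plus strand: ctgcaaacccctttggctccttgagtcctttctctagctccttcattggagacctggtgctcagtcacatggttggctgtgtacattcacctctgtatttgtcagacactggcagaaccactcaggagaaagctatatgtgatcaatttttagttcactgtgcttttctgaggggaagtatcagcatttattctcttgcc
Smyd3 intron, 64.4 kb stretch, chr1:179326601-179326800, plus strand: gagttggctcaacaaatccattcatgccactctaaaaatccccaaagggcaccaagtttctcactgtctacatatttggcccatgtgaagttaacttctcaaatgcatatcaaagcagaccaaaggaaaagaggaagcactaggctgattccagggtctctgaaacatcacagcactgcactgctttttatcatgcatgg
Lowest GC content, 5.80 kb stretch, chr14:51498001-51498200, plus strand: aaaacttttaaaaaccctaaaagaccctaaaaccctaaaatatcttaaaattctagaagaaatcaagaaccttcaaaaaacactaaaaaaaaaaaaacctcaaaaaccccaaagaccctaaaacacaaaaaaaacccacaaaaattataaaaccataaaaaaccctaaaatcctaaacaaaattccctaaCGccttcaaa
Highest GC content, Nphp4 intron, 8.80 kb stretch, chr4:152503601-152503800, plus strand: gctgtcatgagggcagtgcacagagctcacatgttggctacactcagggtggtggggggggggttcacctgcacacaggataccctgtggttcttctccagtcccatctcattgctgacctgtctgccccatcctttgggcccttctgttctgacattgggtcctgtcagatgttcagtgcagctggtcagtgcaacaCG

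The bin in Camkmt is a run of CA and TA repeats followed by unique sequence, and 67% of it is marked as repeat in the reference. The bins of chromosome 4 and of Smyd3 contain no CpG, and those at the extremes of GC content contain 1 each. Among the stretches of at least 5 kb outside chromosome 18, GC content ranged from 29.6% in the stretch of chromosome 14, which overlaps the gene model Gm7247 and is 85.2% repeat, to 54.3% in an intron of Nphp4, a gene of the primary cilium, with 10% repeat.

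The median length of the stretches was 4000 bp, with quartiles of 2200 and 7200 bp, and 1 in 10 exceeded 12000 bp. The 341 stretches of at least 20 kb made up 3.01% of the number and 14.4% of the bases. At the minimum length, 730 stretches of 1000 bp were included and 676 stretches of 800 bp were not. Their GC contents were 37.9% and 38.6% and their repeat shares 37.96% and 42.7%, respectively. Of all bins with the combination of states, 1.71% were lost to the minimum length. Stretches that SD 12m alone had in state 7, while SD 3m and CR 12m had state 8, were more numerous and somewhat longer, with 25880 stretches, a median of 4800 bp and 184 Mb in all.

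The 10 longest stretches, from 50.6 to 93.2 kb, were of 2 kinds. Of these, 4 lay in protein-coding genes and had a GC content of 42.4 to 47.7% and a repeat share of 18.1 to 20.9%. The other 6 lay 610 to 1801 kb from the nearest protein-coding gene, with a GC content of 34.9 to 37.1% and a repeat share of 45.6 to 54.0%. The ratio of observed to expected CpG was 0.234 to 0.287 in the 4 and 0.101 to 0.187 in the 6, so the ranges of the 2 kinds did not overlap in any of these measures.

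The stretches in genes were at chr18:73927201-74020400 in Mapk4, an atypical MAP kinase, chr17:85324401-85406000 in Camkmt, which methylates calmodulin, chr1:179294401-179358800 in Smyd3, a lysine methyltransferase, and chr3:138817601-138877000 in Tspan5, a tetraspanin. Exons made up 5773 bp of the stretch in Mapk4, 247 bp in Camkmt, 51 bp in Tspan5 and none in Smyd3, and the remaining bases were intronic or, in Mapk4, just past the end of the gene. In Camkmt and Smyd3 both edges of the stretch met state 7 that was already present in SD 3m, and the SD 12m and CR 12m runs around them were almost equal, with 215 and 211 kb in Camkmt and 159 and 155 kb in Smyd3.

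The 6 stretches outside protein-coding genes were at chr4:79957201-80022800, chr3:44713201-44768200, chr10:48069001-48123600, chr1:48727201-48780600, chr13:87229201-87280400 and chr4:27317401-27368000. Those on chromosomes 3 and 1 each overlapped a pseudogene and the rest no annotated gene. On chromosome 10 the run in SD 12m was 285 kb long, compared to 54.6 kb in CR 12m, while on chromosome 13 the runs were 89.4 and 87.6 kb. Of the 10 longest stretches, 7 lay in a run of SD 12m that also held state 7 of SD 3m.

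**Figure D1:**
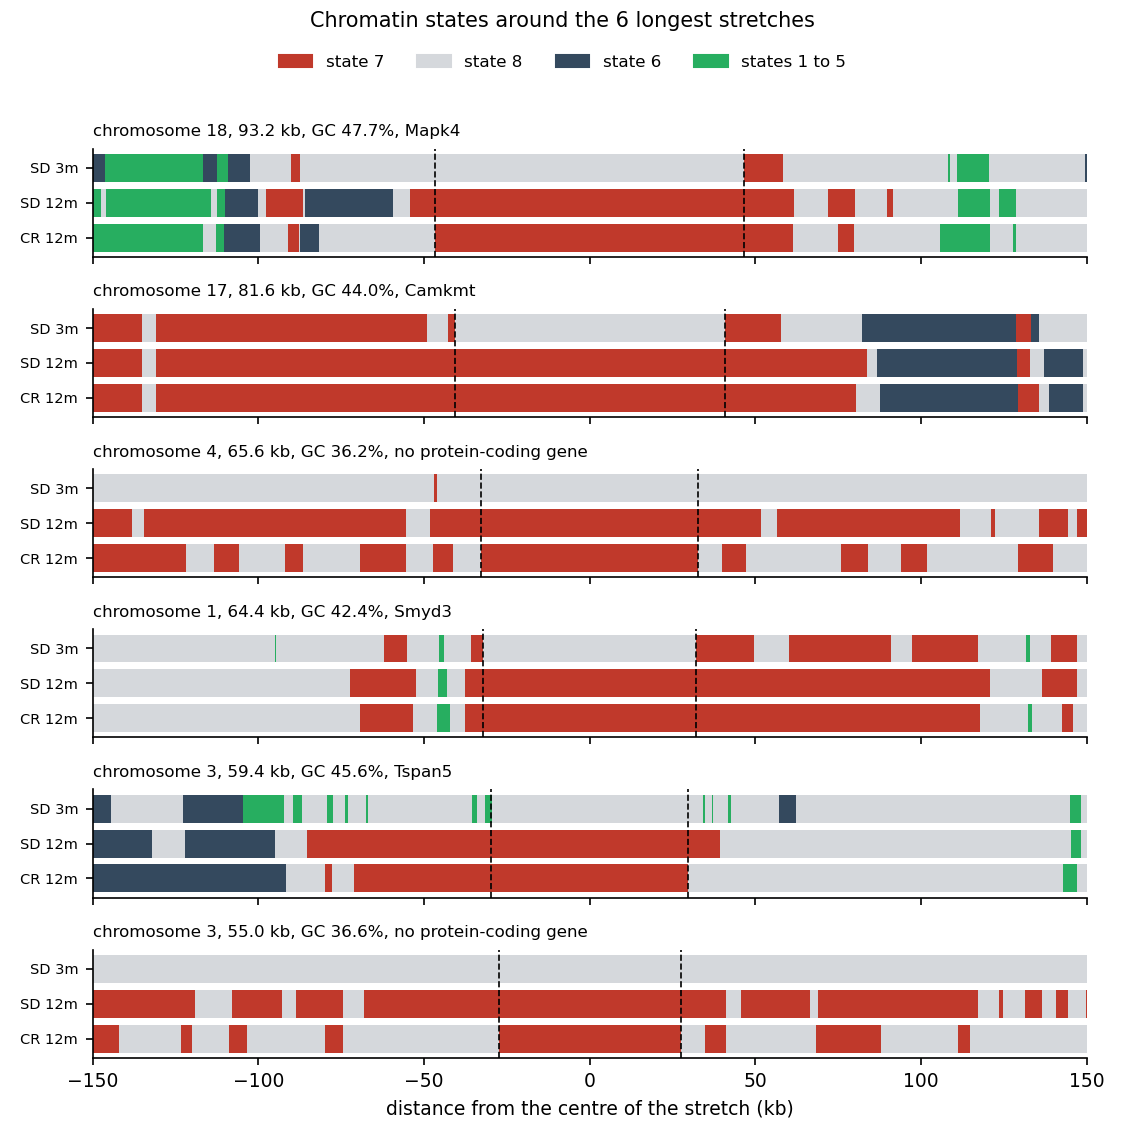
Chromatin states of the 3 groups within 150 kb of the centre of the 6 longest stretches, in rows per group, with the distance from the centre in kb on the horizontal axis and dashed lines at the edges of the stretch. State 7 of SD 3m meets both edges in Camkmt and Smyd3. At both edges of the stretches on chromosome 4 (36.2% GC) and chromosome 3 (36.6% GC), SD 3m continues in state 8. Both of these lie in longer runs of state 7 in SD 12m than in CR 12m. The SD 12m run on chromosome 4 also holds a short piece of state 7 of SD 3m.

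Most edges of the stretches were set by the calorie-restricted segmentation. In 65.6% of 22666 edges, the next bin was in state 8 in CR 12m while SD 12m continued in state 7. The reverse, with SD 12m in state 8 and CR 12m still in state 7, was found at 15.9% of the edges. At 14.3% the next bin was in state 7 in all 3 groups, at 2.68% it was in state 8 in all of them, and at 1.55% it had another combination. Both edges were set by CR 12m in 5026 stretches (44.3%) and by SD 12m in 316 (2.79%). The edges, and the runs described next, were read from the same labels that chose the stretches, so their values are descriptions. State 7 made up 4.35% of the autosomal bins in CR 12m and 11.9% in SD 12m, which bears on the group that sets an edge.

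By these labels, the median stretch filled most of its run in CR 12m and a small part of its run in SD 12m. The median stretch made up 96.1% of its CR 12m run (quartiles 47.6 and 100%) and 22.0% of its SD 12m run (quartiles 9.96 and 44.4%). The stretch was the whole run in 5498 cases (48.5%) in CR 12m and in 441 cases (3.89%) in SD 12m. The median run around a stretch was 21.4 kb long in SD 12m and 6.60 kb in CR 12m, and 66.0% of the stretches had a CR 12m run that lay wholly within the SD 12m run. The 11333 stretches fell in 8125 runs of SD 12m, of which 2038 held more than 1 stretch and the richest held 13.

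**Figure D2:**
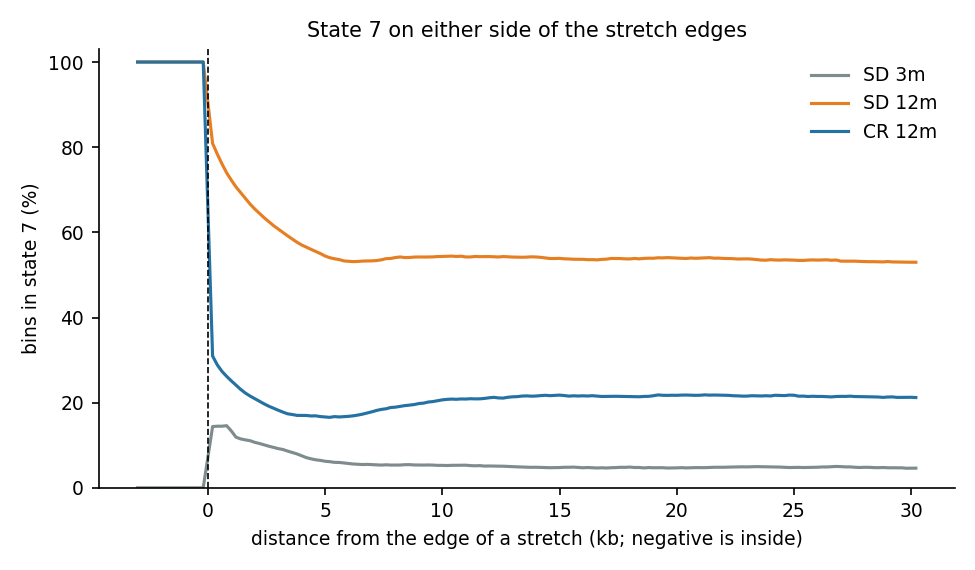
Share of bins in state 7 (%) in SD 3m, SD 12m and CR 12m against the distance from the edge of a stretch (kb, negative inside), over both edges of 11333 stretches. At 30 kb outside the edge the share is 53.0% in SD 12m, 21.3% in CR 12m and 4.61% in SD 3m. Bins of neighbouring stretches are counted.

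Beyond the edges of the stretches, state 7 was frequent over the 30 kb examined. The bins counted there include those of neighbouring stretches, which the rule sets to state 7 in both 12-month groups. These shares are therefore a description. In the bin right beyond the edge, its share was 80.9% in SD 12m, 31.0% in CR 12m and 14.4% in SD 3m. At 5 kb the shares were 54.4%, 16.7% and 6.24%, at 10 kb 54.3%, 20.7% and 5.28%, and at 30 kb 53.0%, 21.3% and 4.61%. In all autosomal bins, state 7 made up 11.9% in SD 12m, 4.35% in CR 12m and 1.92% in SD 3m. State 6, the Polycomb-repressed state, held 4.49% of the bins at 30 kb in SD 12m, and the active and enhancer states 1 to 5 together held 0.503%.

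State 7 of SD 3m lay close to many stretches. It was adjacent to 26.9% of them, compared to 12.8% of the stretches of SD 12m alone, and the median distances were 26.2 and 47.2 kb. The run of state 7 in SD 12m that held the stretch also held state 7 of SD 3m for 4571 stretches (40.3%). In CR 12m this was so for 27.7%, and for stretches of SD 12m alone, in the runs of SD 12m, for 24.5%. As longer runs hold more, runs of like length were compared too. In SD 12m runs under 5 kb the share was 13.9% for the stretches and 5.85% for those of SD 12m alone, in runs of 10 to 20 kb it was 33.8 and 25.7%, and in runs of 50 kb or more it was 64.8 and 59.0%. The remaining 6762 stretches lay in SD 12m runs without any state 7 of SD 3m.

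A stretch was found in 48.4% of the SD 12m runs of 10 to 20 kb and in 93.7% of those of 50 kb or more. The stretches took up 21.4 and 38.1%, respectively, of those bins of these runs that had been quiescent at 3 months. A long run offers more places for a stretch, and the minimum length of a stretch bears most on short runs.

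The stretches were rich in A and T and poor in CpG. Their GC content was 37.3%, compared to 41.9% for all autosomes, 39.6% for stretches in state 7 in all 3 groups and 41.1% for stretches in state 8 in all 3 groups. It was below that of both of these sets on 19 of 19 autosomes. Compared to stretches of SD 12m alone (37.3%), it was lower on 8 autosomes and higher on 11. Among the stretches, GC content had a median of 37.0%, with quartiles of 35.2 and 39.4% and 10th and 90th percentiles of 33.6 and 42.4%. The ratio of observed to expected CpG was 0.147, with 0.137 in SD 12m alone, 0.175 in state 7 in all groups and 0.194 in all autosomes. Of the bins, 46.1% held no CpG, compared to 29.9% of all autosomal bins, 45.6% in SD 12m alone and 43.5% in CR 12m alone. Runs of at least 6 A or 6 T made up 1.53% of the bases of the stretches and 1.26% of the autosomes. In SD 12m alone and CR 12m alone they made up 1.49 and 1.51%, so neither trait is particular to the stretches.

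Repeats of the reference sequence, without their class, made up 41.7% of the bases of the stretches and 33.5% of the autosomes. The share was higher than in stretches of SD 12m alone (38.8%) on 19 of 19 autosomes, and lower than in stretches in state 7 in all groups (45.0%) on 15. It was close to the 41.5% of stretches that CR 12m alone had in state 7, so it is not particular to the stretches. In state 8 in all groups it was 39.4%. Single stretches varied widely, with a median of 36.1% and 10th and 90th percentiles of 17.7 and 73.5%. In 374 stretches at least 90% of the bases were repeats, and 2 stretches had none. The authors kept reads with a mapping quality of at least 1, and repeats allow fewer such reads. The part of repeats in the labels was not tested.

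The stretches were also poorer in GC than their own surroundings, by a small margin. The median difference between a stretch and both flanks of its own length was -0.745 percentage points (quartiles -2.73 and 1.31), and 60.2% of the stretches were below their flanks. The median was below 0 on 18 of 19 autosomes, with chromosome 19 and its 31 stretches as the exception at 0.250. For stretches of SD 12m alone the median was -0.493, for state 7 in all groups -1.55 and for state 8 in all groups 0.558.

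**Figure D3:**
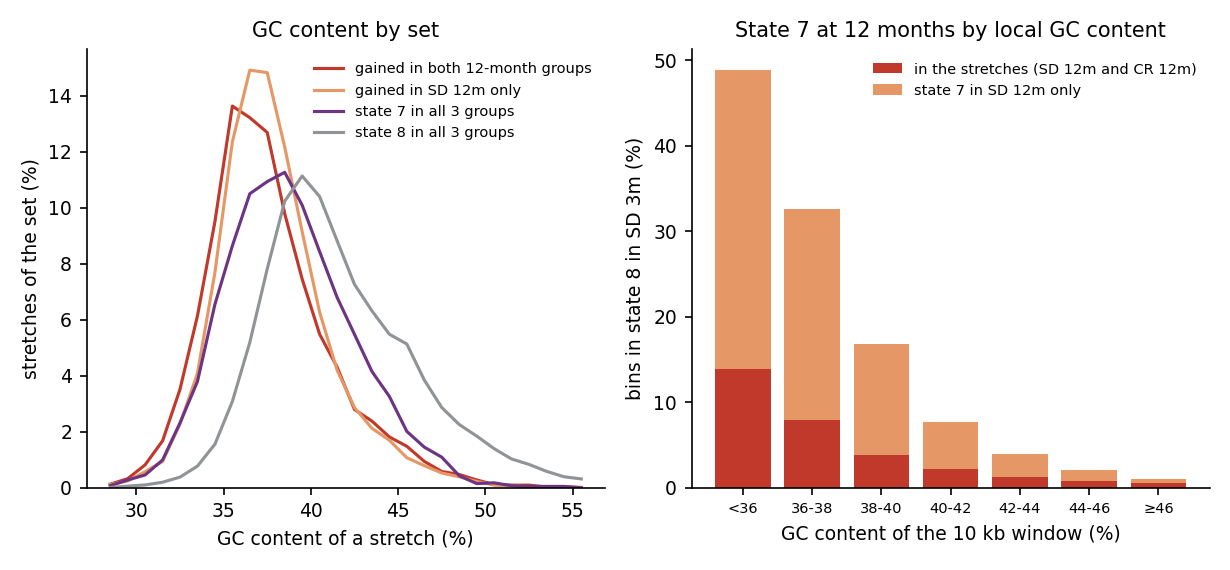
Left, distribution of the GC content of single stretches (%, in steps of 1 percentage point) as the percent of each set, and right, the percent of SD 3m state 8 bins that lay in the stretches or were in state 7 in SD 12m only, by the GC content of the 10 kb window (%). The share in the stretches goes from 13.9% below 36% GC to 0.551% at 46% GC or more.

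The share of quiescent bins that lay in the stretches declined with local GC content. Of the bins quiescent in SD 3m, 13.9% of those in windows of 10 kb with less than 36% GC lay in the stretches. The share was 7.87% at 36 to 38% GC, 3.82% at 38 to 40%, 1.31% at 42 to 44% and 0.551% at 46% or more. Bins in state 7 in SD 12m alone declined more steeply, from 34.9 to 0.530%. The next share is over bins that had moved from state 8 to 7 in SD 12m and were in state 7 or 8 in CR 12m. Of these, 28.6% were in state 7 in CR 12m below 36% GC, 23.1% at 38 to 40% and 52.0% at 46% or more. By repeat share of the window, 0.906% of the bins lay in the stretches below 20% repeat, 7.45% at 40 to 60% and 5.45% at 80% or more.

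The setting of the stretches varied with their own GC content. In the 1268 stretches of at least 42% GC (7.75% of the bases), gene bodies covered 33.8% of the bases, compared to 16.1% in the 1111 stretches of 40 to 42% GC, 10.7% in the 2936 of 36 to 38% GC and 15.8% in the 1441 below 34% GC. The median distance to the nearest TSS in these 4 classes was 97.3, 155, 283 and 388 kb. State 7 present in all 3 groups was next to 54.9, 36.6, 24.2 and 13.1% of the stretches, and the median stretch made up 51.1, 78.0, 98.6 and 100% of its CR 12m run. Median lengths were 2.6 kb, 3.2 kb, 5 kb and 3.2 kb, and 13 of the stretches of at least 42% GC reached 20 kb. The limits of the classes were chosen after values were seen.

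By chromosome, coverage ranged from 0.191% of chromosome 19 to 4.58% of chromosome 4. Chromosomes 1 (4.53%), 3 (4.45%), 13 (3.72%) and 10 (3.56%) followed chromosome 4, and chromosomes 11 (0.649%), 18 (1.05%) and 7 (1.10%) preceded chromosome 19. Chromosome 1 held the most, with 1470 stretches and 8.86 Mb. As a share of the bins quiescent at 3 months, the order was similar, from 0.319% on chromosome 19 to 6.99% on chromosome 4. Of the bins that had moved from state 8 to 7 in SD 12m, CR 12m shared 17.7% on chromosome 16 and 36.4% on chromosome 13, and of those that had done so in CR 12m, SD 12m shared 63.3% on chromosome 19 and 86.7% on chromosome 1. Across the 19 autosomes, coverage and GC content of the chromosome had a Pearson's r of -0.506 and a Spearman's rho of -0.458, and r was -0.285 without chromosomes 3 and 11, which lie farthest from the median GC content. The chromosomes come from the same merged libraries, so these are descriptions.

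**Figure D4:**
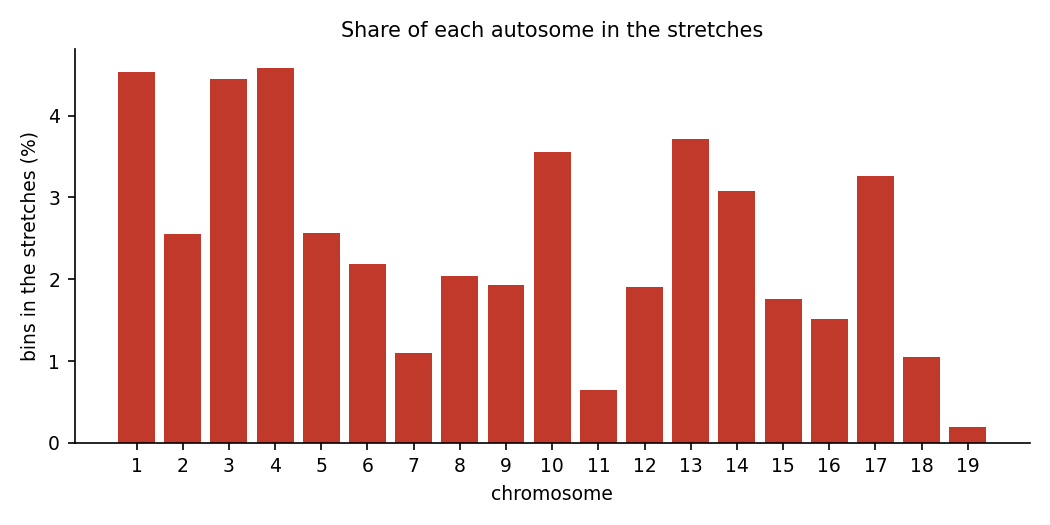
Percent of the 200 bp bins of each autosome that lay in the stretches, 1 bar per chromosome. Chromosomes 4, 1 and 3 are above 4% and chromosome 19 is at 0.191%.

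The stretches were clustered. The median gap between neighbours was 25.6 kb, with quartiles of 10.2 and 74.6 kb. In windows of 1 Mb, 1054 of 2397 (43.97%) held no stretch, while the 240 richest held 67.9% of the bases. The 3 richest windows were chr10:48000001-49000000 with 63.1% of its bins in 44 stretches, the neighbouring chr10:47000001-48000000 with 59.1% in 42, and chr13:87000001-88000000 with 46.4% in 50. None of these windows contained a protein-coding gene, and their GC contents were 36.4, 37.0 and 36.8%. In the window with most bases, state 7 covered 2.70, 91.0 and 66.6%, in the order SD 3m, SD 12m, CR 12m that is kept in what follows.

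Most of the stretches lay far from genes. Gene bodies covered 13.9% of their bases, compared to 17.2% in SD 12m alone, 30.5% in state 7 in all groups, 33.7% in state 8 in all groups and 40.4% of the autosomes. The share was below that of SD 12m alone on 15 of 19 autosomes. Of the stretches, 83.7% did not touch a gene body, compared to 80.3% of those of SD 12m alone and 79.5% of those of CR 12m alone. Gene bodies are those of the longest curated transcript, so genes without one count as untouched. Exons covered 0.573% of the bases of the stretches and 2.66% of the autosomes. The median distance from the middle of a stretch to the nearest TSS was 253 kb (quartiles 83.0 and 570 kb), compared to 74.3 kb in state 8 in all groups. It was 234 kb for stretches of SD 12m alone and 208 kb for those of CR 12m alone, so a long distance was not particular to the stretches. Of the SD 3m state 8 bins, 1.91% within 10 kb of a TSS lay in the stretches and 9.67% of those more than 500 kb away. The share in state 7 in SD 12m alone rose likewise, from 5.12 to 25.3%.

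In all, 632 of 20021 autosomal protein-coding genes (3.16%) had at least 200 bp of their body in the stretches, and a median of 4.20 kb of an overlapped gene lay in them. These were mostly long genes. Of the genes of at least 100 kb, 16.3% were overlapped (360 of 2206), compared to 1.53% of the shorter ones, and the median length of an overlapped gene was 148 kb, compared to 16.9 kb for all genes.

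Lrp1b, an endocytic receptor of the LDL receptor family (chromosome 2, 40596773 to 42653598, minus strand), had the most bases, with 391 kb in 56 stretches. State 7 covered 1.80, 73.1 and 22.8% of it. It was followed by Ptprd, a receptor tyrosine phosphatase of synapses, with 310 kb, or 13.6% of the gene. Grik2, a subunit of the kainate receptors of glutamate (chromosome 10, 49093680 to 49788754, minus strand), lay 302 kb in the stretches, 43.4% of its body, and state 7 covered 1.78, 86.8 and 47.7%. Grik2 lies less than 100 kb beyond the richest window of chromosome 10 named above.

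Wwox, an oxidoreductase gene at a common fragile site (chromosome 8, 114439652 to 115352712, plus strand), differed from these. It had 231 kb (25.3%) in the stretches, but state 7 covered 28.7% of it in SD 3m already, and 59.9% in CR 12m, above the 55.6% of SD 12m. Its GC content was 45.8%, compared to 36.4% for Lrp1b and 35.5% for Grik2. The next genes by bases were Nkain2 (184 kb), whose product interacts with the sodium pump, Lrrc4c (144 kb), a synaptic adhesion gene, Ccser1 (140 kb), Gm37013 (131 kb), a gene model that spans protocadherin genes of chromosome 18, Stpg2 (122 kb) and 2210408I21Rik (117 kb). In Nkain2, Lrrc4c, Ccser1 and Stpg2, state 7 covered from 50.1 to 66.2% of the gene in SD 12m, whereas CR 12m had 14.1 to 27.3%.

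Among genes of at least 10 kb, the whole of Vmn2r108 (chromosome 17, 20462373 to 20481236, minus strand) lay in 1 stretch of 29.2 kb. Vmn2r112 had 93.3% of its body in stretches, Vmn2r95 79.4%, Vmn2r98 66.2%, Vmn2r109 62.9%, Vmn2r110 61.8% and Vmn2r105 61.4%. These 7 genes are type 2 vomeronasal receptors, which detect pheromones, and all lie on chromosome 17. The other genes in this ranking were Mapk4 (73.4%), Tspan5 (59.7%) and E2f7 (59.6%), an atypical repressor of the E2F family of cell cycle factors. The GC content of the latter 3 was 45.9 to 47.2%, compared to 33.2 to 36.7% for the receptors. In Vmn2r105, state 7 covered less in SD 12m (61.4%) than in CR 12m (96.7%).

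The sensory receptor families and the clustered protocadherins had the largest shares of their bodies in the stretches among 17 gene lists. These shares are summed over genes, so bases common to overlapping protocadherin genes count repeatedly. Of the olfactory receptors, 77 of 1101 (6.99%) were overlapped, compared to 3.16% of all protein-coding genes, and 6.57% of their bases lay in the stretches, compared to 0.964%. Of the vomeronasal receptors, 52 of 349 were overlapped (14.9%), with 12.0% of their bases. Stretches of SD 12m alone held more, with 15.1% of the bases of either receptor family, compared to 3.09% for all genes. Receptor genes are short, lie in tandem arrays and have close copies, to which reads can be difficult to assign, so their labels are uncertain.

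The arrays differed from one another. On chromosome 17, 25 of 45 vomeronasal and 7 of 50 olfactory receptors were overlapped, and on chromosome 7, 20 of 176 and 4 of 238. The olfactory receptors of chromosome 2 (35 of 287) and chromosome 9 (23 of 130) made up most of those overlapped, while none of the 83 on chromosome 11, the 62 on chromosome 19 or the 39 on chromosome 14 was. The olfactory receptors with the most bases in the stretches were Olfr872 (10.9 kb, 45.9% of the gene), Olfr27 (6.07 kb), Olfr77 (5.28 kb) and Olfr129 (5.19 kb), of which the last 2 lay wholly inside a stretch. Beside genes named above, Vmn2r60 of chromosome 7 had 20.8 kb in stretches.

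The clustered protocadherins are neuronal surface molecules and all lie on chromosome 18. Their alpha genes are expressed from alternative promoters and share their last exons, which is not so for all members of the family. Of the family, 16 of 57 genes were overlapped (28.1%), by 14 stretches. Summed over genes, 13.2% of their bases lay in the stretches, with 7.66% in stretches of SD 12m alone. The bodies of the alpha genes overlap each other, so that Pcdha1 (82.0 kb), Pcdha2 (81.0 kb), Pcdha3 (74.1 kb) and Pcdha4 (68.5 kb) largely count the same stretches. The sum over the family was 679 kb, so its shares and gene count rest on the same bases counted repeatedly. In Pcdha1, state 7 covered 11.5, 52.0 and 47.4%.

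Among the lists of long genes, at least 1 stretch was found in 15 of 18 very long genes of common fragile sites, 19 of 43 genes of synaptic and axonal adhesion, 10 of 23 cadherins and 12 of 39 glutamate and GABA receptors, compared to 16.3% of all genes of at least 100 kb and 3.16% of all genes. The median gene lengths of these lists were 1291, 579, 145 and 184 kb, and genes of like length were not set beside them. The shares of their bases were 4.07, 2.03, 3.26 and 4.10%, compared to 0.964% for all genes. In stretches of SD 12m alone these shares were 12.2, 14.4, 13.9 and 12.1%, compared to 3.09% for all genes. Cntn4, a contactin, had 96.2 kb in stretches (9.41%), Cntnap2 94.4 kb (4.21%), and Csmd3 91.0 kb. Cntnap5a (69.8 kb), Cntn5 (67.4 kb), Gria4 (26.4 kb) and Grm8 (22.4 kb) followed in these lists. In Cdh7, a classical cadherin with 49.5 kb in stretches, state 7 covered 1.91, 96.1 and 36.9%. Cdh19 had 31.8 kb, Cdh13 9 kb and Cdh4 38.4 kb, the latter with a GC content of 49.5%.

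Of the genes named after zinc fingers, 23 of 389 were overlapped (5.91%, compared to 3.16% of all genes), with 1.55% of their bases. Zfp804a (36.6 kb) and Zfp804b (31.6 kb) led this list, followed by Zfp978 (24.0 kb) and Zfp988 (12.8 kb), which overlap each other on chromosome 4. Of the potassium, sodium and calcium channels, 9 of 133 were overlapped (6.77%), with 0.303% of their bases, compared to 0.964% for all genes. Kcnd2 had 13.0 kb, Kcnc2 7 kb, Kcnip4 6.80 kb and Kcnmb4 6.60 kb. The median share per gene was 0 in all lists and in all genes, except for the genes of fragile sites, where it was 0.723%.

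In 8 lists no gene was overlapped. They were 88 cytochrome P450 enzymes, 21 UDP-glucuronosyltransferases, 22 major urinary proteins, 28 plasma proteins made by hepatocytes, 39 Hox genes, 39 other developmental transcription factors, 109 keratins and keratin-associated proteins and 70 defensins. With 3.16% of all genes overlapped, and 1.53% of those under 100 kb, each list alone would hold few overlapped genes or none at these shares. The absence from a single list is therefore not read as a result. The 8 lists together were not set against these shares. In the defensins, 8.03% of the bases lay in stretches of SD 12m alone, and state 7 covered 0, 8.18 and 0% of their bodies.

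**Figure D5:**
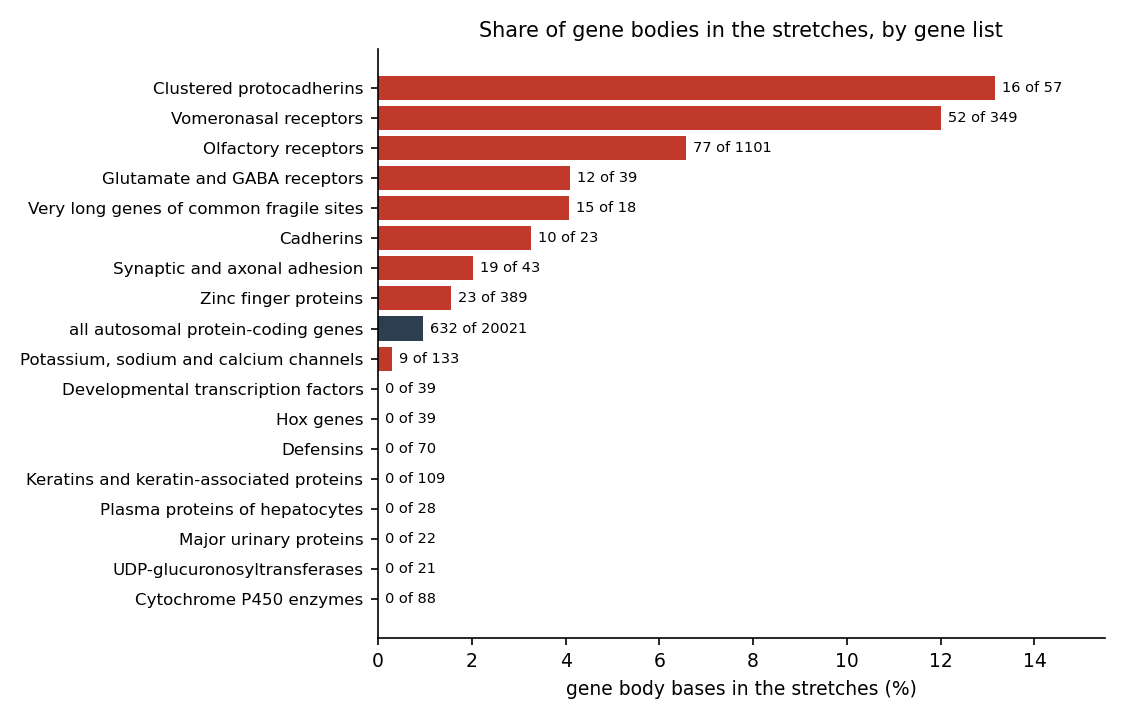
Percent of gene body bases in the stretches for 17 gene lists and for all autosomal protein-coding genes (dark bar), with the number of genes overlapped out of those in the list beside each bar. The clustered protocadherins and both receptor families are above 6%, all genes are at 0.964% and 8 lists are at 0. Bases common to overlapping genes, as in the protocadherins, count repeatedly.

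Few stretches held a TSS. Of 24963 autosomal TSS, 145 (0.581%) lay in a stretch, among them 119 of protein-coding genes, 16 of lncRNA genes and 5 of miRNA genes. Of the 119, 93 (78.2%) were in the 3 families above, with 61 olfactory receptors, 23 vomeronasal receptors and 9 clustered protocadherins. In 2 kb around the TSS, the median GC content was 36.4% (quartiles 34.3 and 40.5%), compared to 51.9% (46.7 and 56.5%) for all autosomal protein-coding TSS. The gene models of the receptors were short, with a median of 0.948 kb for olfactory and 0.951 kb for vomeronasal receptors. Such models may begin at the coding sequence, so their TSS and the GC content around them are uncertain. The annotated TSS of Olfr129 and Vmn1r83 lie in the 2 longest stretches with a TSS. The sequence around each is shown from 270 bases before the TSS to the 30th base of the transcript, with capitals at CpG.
Olfr129, chr17:38059755-38060054, minus strand: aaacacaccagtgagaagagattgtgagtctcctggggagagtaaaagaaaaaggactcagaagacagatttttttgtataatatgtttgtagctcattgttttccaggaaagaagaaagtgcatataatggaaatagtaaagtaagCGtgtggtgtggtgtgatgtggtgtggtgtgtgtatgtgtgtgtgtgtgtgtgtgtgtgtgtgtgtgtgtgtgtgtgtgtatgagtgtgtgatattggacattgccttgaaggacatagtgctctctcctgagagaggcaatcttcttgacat
Vmn1r83, chr7:12322099-12322398, minus strand: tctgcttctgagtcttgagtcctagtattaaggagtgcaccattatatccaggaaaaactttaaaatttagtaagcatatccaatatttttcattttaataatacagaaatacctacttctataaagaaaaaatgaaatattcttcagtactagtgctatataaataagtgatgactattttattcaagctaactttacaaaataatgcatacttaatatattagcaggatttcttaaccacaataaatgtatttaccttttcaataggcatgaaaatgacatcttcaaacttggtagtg

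The sequence before Olfr129, an olfactory receptor, holds 1 CpG and a long TG repeat, and that before Vmn1r83, a vomeronasal receptor, holds no CpG and has a GC content of 27.3%. The model of Vmn1r83 is 0.921 kb long and begins with ATG, so the bases before it may not be a promoter. Both TSS were in state 8 in SD 3m and in state 7 at 12 months under either diet, in stretches of 37.8 and 30.4 kb. The next longest stretches with a TSS held those of Vmn2r108 (29.2 kb), Vmn2r110 (24.4 kb), Amd2 (22.4 kb), Vmn2r104 (22.2 kb) and Vmn2r101 (21.8 kb). A stretch of 21.4 kb on chromosome 18 held the TSS of Pcdha4, Pcdha5 and Pcdha6 and of the gene models Gm37013 and Gm38666.

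Among the 26 genes outside the 3 families, 4 belong to the prolactin family of placental hormones (Prl8a6, Prl8a9, Prl3c1 and Prl8a1). The TSS of 5 genes had a GC content above 50% in the 2 kb around it, Tshz3 (69.7%), Nr2f1 (69.6%), Jph1 (62.5%), Ica1 (56%) and Hdgfl1 (52.2%). Tshz3 and Nr2f1 encode transcription factors of development. These genes were chosen after their values were seen.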

How the data were processed

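ChIP-seq libraries of 4 histone marks were aligned by the authors to mm10 with BWA (0.6.2-r126). Reads with a mapping quality below 1, or outside the autosomes and chromosome X, and duplicates, were removed with SAMtools (0.1.18). Libraries of a group were merged and segmented by the authors with ChromHMM in bins of 200 bp. The deposited files hold a label from 1 to 8 per bin, which is no signal, and their depth is unknown. SD 6m was not analysed here.

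Stretches were assembled from the labels in Python 3.11.15 with numpy 2.4.6 and scipy 1.17.1, with figures in matplotlib 3.10.9. Sequence, repeats (lower case) and genes came from GRCm38.p6 (RefSeq, longest curated transcript per gene), whose chromosome lengths match the bins. A gene was overlapped with at least 200 bp. A run is an unbroken series of bins in a state. The functions were tested on simulated data.

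The stretches and gene lists were chosen with earlier results of these data known. Named are the 10 longest stretches, 3 richest windows, 10 genes with most bases and with the highest share (of at least 10 kb), 10 TSS by stretch length, and up to 4 genes per list. A gene that this rule would name is not reported here. No test was made. The alternatives were another minimum length, bridged gaps, bins near a state boundary or chromosome 1 left out, chromosome X, and whole gene models.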

Additional observations from a re-analysis of the deposited data

How the results depend on the processing

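With 8 results and 50 alternative values, 43 stayed within 1.5-fold for counts, or within 95% binomial limits that take stretches as trials for shares. The shares of GC, repeats and gene bodies are over bases and not stretches, so for them the limits are only a nominal yardstick. The alternatives keep most of the same bases, so most values could hardly leave the limits, and the 43 are no measure of robustness. The share of stretches in an SD 12m run with state 7 of SD 3m (40.3%) was 43.97% with no minimum length, 38.9% with a minimum of 2 kb, 38.2% without chromosome 1 and 35.6% after leaving out bins up to 1 kb from where the SD 3m state changes. The last of these leaves out the bins next to state 7 of SD 3m by construction. For the others the cause was not tested. The median GC difference from the flanks (-0.745) was -0.639 with no minimum length and -0.833 without the bins near a boundary. The gene body share (13.9%) was 18.6% with whole gene models, which include predicted transcripts. The GC difference from the flanks was below 0 under each of the 6 alternatives run for it. The other sets of stretches were not recomputed under the alternatives.

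Libraries were merged into 1 segmentation per group, so the limits say nothing of the spread between mice, and the read depth behind a label is unknown. Diet, the number of merged libraries and depth cannot be told apart. No paired analysis was possible because the libraries of a group were merged.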
